A study of Mus musculus with 2 samples.

Results

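Cluster 9 is 1 of 11 cell clusters that the authors drew from single-cell RNA profiles of mouse gastric tumors, and its leading gene was Krt20, a keratin of differentiated gastric and intestinal epithelium. Its members here are the genes that the authors' deposited table gives for it, which are those with a linear fold above 1.5. There were 7131 such genes of 18319 named anywhere in the table. Of these, 4871 reached a fold of 2 or more while their deposited p did not exceed 0.05, and only these are called raised. A gene that the table gives for a cluster at any p is called listed there. A gene not listed had no fold above 1.5 in the table for that cluster, so genes at lower levels in cluster 9 are not seen.

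The cells came from 2 tumors grown in female mice of the NuJ strain, an athymic nude strain, from injected cells that the labels call DP-DSC and the series title describes as dysplastic stem cells. A cystic adenocarcinoma was collected at 10 weeks after injection and a tubular adenocarcinoma at 13 weeks, with 1 library each, so tumor type and time cannot be told apart and there were no replicate tumors. Cells were captured in droplets on the inDrop platform, and libraries followed the TruDrop protocol. Every tumor in the study arose from the injected cells, and no normal stomach or uninjected control was analysed here, while host cells could also enter the libraries. The table is of the whole series and carries no tumor type. It does not state which cells a fold was taken against, and neither cells per cluster nor transcripts per cell are given in the sources used here. The depth of each fold is therefore unknown. Errors across animals cannot be given, and no p-value is printed, because the cluster was defined from the same genes and cells are not replicates. Values are therefore a description, set beside epithelial clusters 3 and 6, whose folds may share reference cells with those of cluster 9.

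The gastric surface is lined by mucous cells that secrete gastrokines, trefoil factors and mucins into a protective gel. They are renewed from progenitors in the gland and are joined by tight junctions, adherens junctions and desmosomes. Simple epithelial keratins such as Krt8, Krt18, Krt19 and Krt20 form their intermediate filaments, and Krt20 is found in the most differentiated cells of the stomach and intestine. Dysplasia and intestinal metaplasia can mix gastric and intestinal programs in the same gland.

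The promoters of 4 genes are shown. Krt20, Krt8 and Gkn1 are among the markers of the cluster, and Gkn2 is the neighbour and relative of Gkn1. The windows of the other markers, Mucl3 and Fcgbp, held no match to the motifs below and are not shown. Each window holds 250 bases before and 50 bases from the RefSeq start on GRCm38.p6, read 5′ to 3′ on the strand of the gene. Capitals mark matches on either strand to 7 short motifs. They are the TATA box motif TATAAA, the AP-1 motif TGANTCA, the TEAD motif GGAATG, the motif AGATAA for GATA factors, the FOX motif TGTTTAC, the GRHL motif AACCGGTT and the E2F motif TTTGGCGC. The windows are chr11:99438104-99438403 on the minus strand for Krt20, chr15:102004293-102004592 on the minus strand for Krt8, chr6:87350866-87351165 on the minus strand for Gkn1 and chr6:87373115-87373414 on the plus strand for Gkn2.
Krt20: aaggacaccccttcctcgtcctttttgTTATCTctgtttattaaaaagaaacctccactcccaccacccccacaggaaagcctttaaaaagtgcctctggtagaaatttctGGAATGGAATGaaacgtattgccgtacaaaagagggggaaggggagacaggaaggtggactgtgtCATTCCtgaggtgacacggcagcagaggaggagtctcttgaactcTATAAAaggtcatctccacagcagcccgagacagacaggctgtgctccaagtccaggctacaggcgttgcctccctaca
Krt8: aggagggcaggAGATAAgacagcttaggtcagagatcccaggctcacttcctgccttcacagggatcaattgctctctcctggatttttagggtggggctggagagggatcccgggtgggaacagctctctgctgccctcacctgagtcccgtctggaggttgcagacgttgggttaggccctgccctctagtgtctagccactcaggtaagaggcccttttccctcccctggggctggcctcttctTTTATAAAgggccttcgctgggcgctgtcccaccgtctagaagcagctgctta
Gkn1: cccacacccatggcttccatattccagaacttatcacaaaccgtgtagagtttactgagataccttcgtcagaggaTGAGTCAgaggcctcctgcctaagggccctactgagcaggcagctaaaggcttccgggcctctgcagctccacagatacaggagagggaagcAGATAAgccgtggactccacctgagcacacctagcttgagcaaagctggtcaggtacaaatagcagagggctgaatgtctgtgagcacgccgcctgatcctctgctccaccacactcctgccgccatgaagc
Gkn2: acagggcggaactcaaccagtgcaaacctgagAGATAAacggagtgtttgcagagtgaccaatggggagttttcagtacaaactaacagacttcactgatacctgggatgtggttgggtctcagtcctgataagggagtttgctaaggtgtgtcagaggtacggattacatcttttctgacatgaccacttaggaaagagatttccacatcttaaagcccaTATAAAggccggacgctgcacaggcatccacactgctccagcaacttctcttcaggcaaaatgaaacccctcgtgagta

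The Krt20 window held TATAAA from position -29, counted with the start base as 0, and GGAATG from positions -139, -134 and -74. The first 2 of these overlap by 1 base, and the one at -74 is on the other strand. It also held AGATAA from -223 on the other strand. The Krt8 window held TATAAA on both strands from -3 and -1, which overlap, and AGATAA from -239. In Gkn1, TGANTCA matched from -174 and AGATAA from -82, and in Gkn2, TATAAA matched from -29 and AGATAA from -218. The windows of the markers Mucl3 and Fcgbp held none of the 7 motifs. A promoter was given for 12332 of the 18319 names and for 3404 of the 4871 genes raised in cluster 9. The GGAATG motif was in 12.8% of promoters of raised genes and in 12.6% of those of all named genes, and 3 or more matches were in 0.118% and 0.114%. TATAAA was in 7.37% and 8.27%, TGANTCA in 5.26% and 5.95%, and AGATAA in 6.67% and 7.07%, in the same order. Over all 27025 RefSeq promoters the shares were 14.6% for GGAATG, 14.2% for TATAAA, 7.93% for TGANTCA and 11.4% for AGATAA.

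The 5 markers of the cluster were all raised in it, and each was also listed in at least 1 other cluster. Krt20 came first of all cluster 9 genes by p, with a fold of 3.83 in cluster 9, 3.28 in cluster 3 and 4.50 in cluster 6 of the authors' deposited table, raised in each. Gkn1, a gastrokine secreted by surface mucous cells, was at 5.94 in cluster 9, 4.01 in cluster 3 and 4.82 in cluster 6 of the authors' deposited table, and missed the raised rule in cluster 3. Mucl3, a mucin-like gene, had folds of 7.34, 2.15 and 5.46 in clusters 9, 3 and 6 of the authors' deposited table, raised in each. Fcgbp, a protein of the mucus gel that binds immunoglobulin, stood at 8.37 in cluster 9 and at 7.67 in cluster 6 of the authors' deposited table, where it was not raised, and it was not listed in cluster 3. Krt8 lay close to the fold of 2, at 2.01 in cluster 9, 1.70 in cluster 3 and 1.96 in cluster 6 of the authors' deposited table, and passed only in cluster 9. The fold of Krt20 was thus larger in cluster 6 than in cluster 9, while those of the other 4 markers were largest in cluster 9. Krt20 was also listed in cluster 5 at 1.75 and Krt8 in clusters 2 and 7 at 1.98 and 1.96 in the authors' deposited table, none of them raised.

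**Figure D1:**
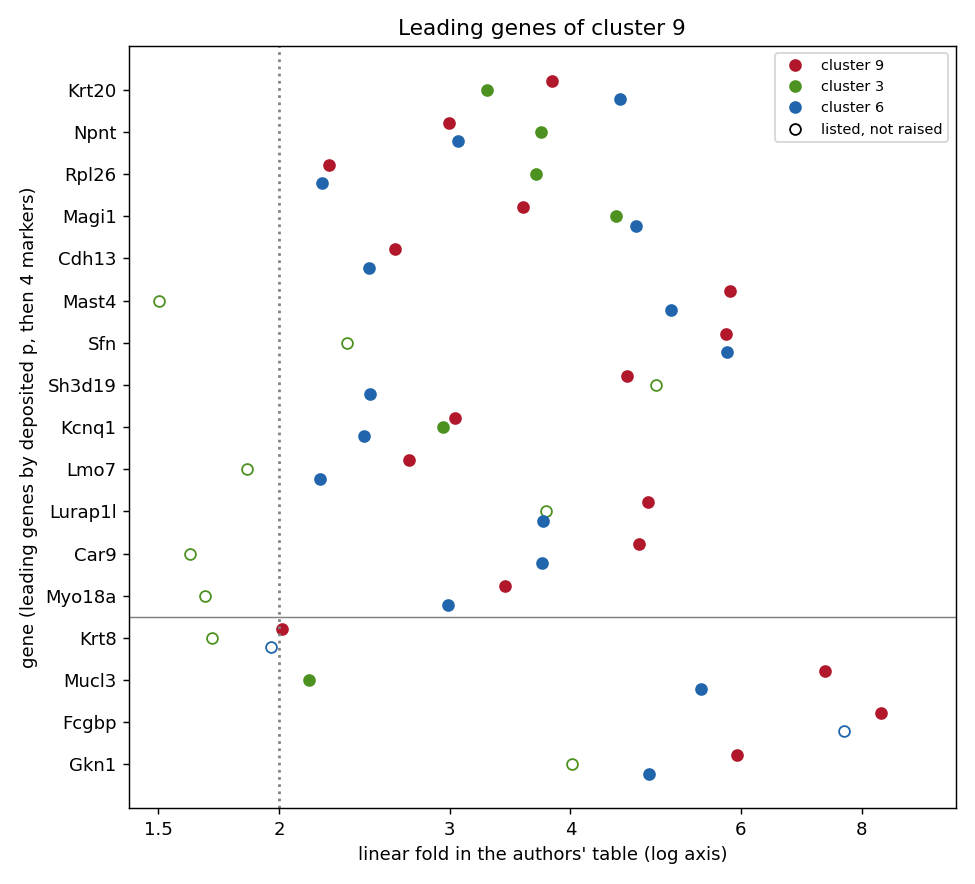
Linear folds (log axis) in the authors' deposited table for 13 of the first 15 genes of cluster 9 by deposited p and 4 further markers, in clusters 9 (red), 3 (green) and 6 (blue). Filled points are raised, open points are listed only, and the dotted line is a fold of 2. Krt20 lies at 3.83 in cluster 9, 3.28 in cluster 3 and 4.50 in cluster 6.

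After Krt20 in the order by p came Npnt, an extracellular ligand of integrins, at 2.996 in cluster 9, 3.73 in cluster 3 and 3.06 in cluster 6 of the authors' deposited table. The junction scaffold gene Magi1 was at 3.57 in cluster 9, 4.46 in cluster 3 and 4.68 in cluster 6 of the authors' deposited table. Both were raised in all 3 epithelial clusters. Others were weaker or missing in cluster 3. Mast4, a microtubule-associated kinase, was at 5.84 in cluster 9, 1.504 in cluster 3 and 5.08 in cluster 6 of the authors' deposited table, and was not raised in cluster 3. Sfn, an epithelial 14-3-3 protein, was at 5.80 in cluster 9, 2.35 in cluster 3 and 5.80 in cluster 6 of the authors' deposited table, again not raised in cluster 3. Cdh13, a cadherin anchored by lipid, was at 2.64 in cluster 9 and 2.48 in cluster 6 of the authors' deposited table and was not listed in cluster 3. Car9, a carbonic anhydrase of the cell surface, was at 4.71 in cluster 9, 1.62 in cluster 3 and 3.74 in cluster 6 of the authors' deposited table. The first 15 also held Rpl26, a ribosomal protein, Sh3d19, the potassium channel Kcnq1, the actin-binding protein Lmo7, Lurap1l and the unconventional myosin Myo18a, at 2.25 to 4.81 in cluster 9 of the authors' deposited table.

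Of the first 100 genes of cluster 9 by p, 79 were raised in it, 33 in cluster 3 and 70 in cluster 6, and 83 and 91 were listed in clusters 3 and 6. Their median fold in the authors' deposited table was 2.82 in cluster 9, 2.42 over those listed in cluster 3 and 2.55 over those listed in cluster 6. In the reverse direction, 57 of the first 100 genes of cluster 3 and 90 of the first 100 of cluster 6 were listed in cluster 9, with 21 and 44 raised there. Ribosomal names made up 6 of the first 100 in cluster 9, 44 in cluster 3 and 26 in cluster 6. Among all 83 named cytoplasmic ribosomal protein genes, 9 were raised in cluster 9 (10.8%), 18 in cluster 3 (21.7%) and 7 in cluster 6 (8.43%). Of all named genes, 26.6%, 4.0% and 20.3% were raised in the same order. The ribosomal share was thus below that of all named genes in clusters 9 and 6 and above it in cluster 3. Ribosomal protein genes have many near-identical pseudogenes, so the values of these genes are uncertain.

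Genes leading cluster 9 by p had longer spans than those leading clusters 3 and 6. The median span from first to last annotated base of the first 100 genes was 39.8 kb in cluster 9, 3.23 kb in cluster 3 and 5.57 kb in cluster 6, against 21.99 kb over all named genes with a RefSeq entry. Ribosomal genes are short, and without them the medians were 43.7 kb in cluster 9, 6.23 kb in cluster 3 and 14.4 kb in cluster 6. Predicted genes and pseudogenes under other names were kept in these medians. A span over 100 kb was found for 28 of 99 genes in cluster 9, for 3 of 98 in cluster 3 and for 12 of 97 in cluster 6. The longest was Cdh13 with 1185 kb, followed by Magi1 with 608.5 kb, Mast4 with 602.6 kb, the transcription factor gene Mecom with 558.5 kb and the adhesion gene Kirrel3 with 555 kb. Over the next 400 genes by p the medians were 34.6 kb in cluster 9, 14.6 kb in cluster 3 and 32.4 kb in cluster 6, so clusters 9 and 6 were close there. Over all raised genes the medians were 24.01 kb in cluster 9, 16.5 kb in cluster 3 and 24.7 kb in cluster 6. In the other 8 clusters the median of the first 100 ran between 3.81 kb in cluster 7 and 31.1 kb in cluster 1. Protein-coding genes made up 97.0% of the first 100 in cluster 9 that had an entry, 68.4% in cluster 3 and 77.3% in cluster 6, while pseudogenes made up 1.01%, 30.6% and 19.6%.

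**Figure D2:**
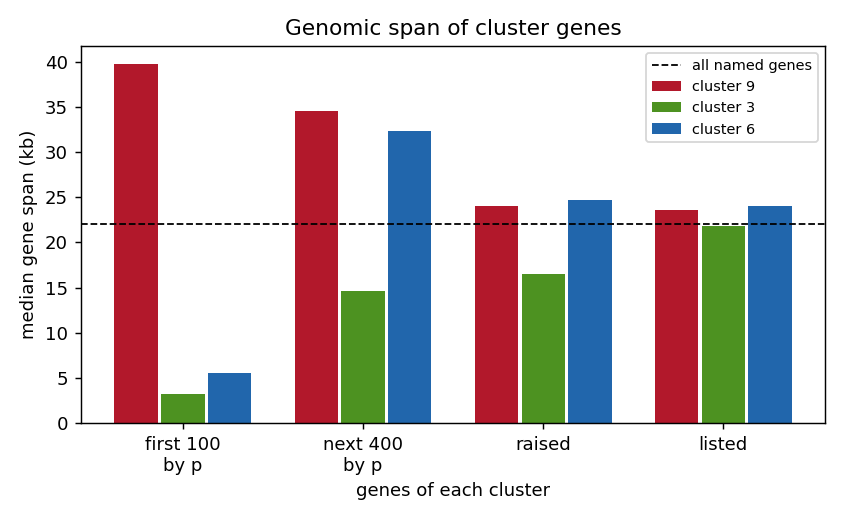
Median gene span in kb (RefSeq, GRCm38.p6) for the first 100 genes by deposited p, the next 400, all raised and all listed genes of clusters 9, 3 and 6, with the median of all named genes as a dashed line at 21.99 kb. The first 100 stand at 39.8 kb in cluster 9, 3.23 kb in cluster 3 and 5.57 kb in cluster 6, and the clusters lie closer together over all listed genes.

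Cluster 9 had more listed and raised genes than clusters 3 and 6, at mostly moderate folds. Of all named genes, 38.9% were listed and 26.6% raised in cluster 9, against 29.9% and 4.0% in cluster 3 and 36.4% and 20.3% in cluster 6. A deposited p of at most 0.05 was given to 97.3% of listed genes in cluster 9, 16.0% in cluster 3 and 74.5% in cluster 6. With the p ignored, a fold of 2 or more was given for 4966 genes in cluster 9, against 4025 in cluster 3 and 4750 in cluster 6. The median fold of listed genes in the authors' deposited table was 2.46 in cluster 9, 2.73 in cluster 3 and 2.57 in cluster 6, and the highest was 52.3, 226.0 and 87.0. Within cluster 9, 2165 genes had folds from 1.5 to 2, 2359 from 2 to 3, 1608 from 3 to 5, 807 from 5 to 10, 162 from 10 to 20 and 30 of 20 or more in the authors' deposited table. Just inside the fold of 2 in the authors' deposited table were Rpl41 at 2.0005, Gm49226 at 2.0007 and Eif5b at 2.0011, and just outside were Ddit4l at 1.9987, Copz1 at 1.9986 and Ptpn21 at 1.9980.

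Most genes raised in cluster 9 were listed elsewhere too. Of the 4871, 2816 were listed in cluster 6 (57.8%) and 1855 in cluster 3 (38.1%), where 36.4% and 29.9% of all named genes were listed. Raised in both cluster 9 and cluster 6 were 1697 genes, or 34.8% of the raised genes of cluster 9 and 45.7% of those of cluster 6. With cluster 3 the number was 182, or 3.74% of the raised genes of cluster 9 and 24.8% of those of cluster 3. There were 96 genes raised in all 3. With cluster 4, 511 were shared, or 10.5% of cluster 9 and 15% of cluster 4. With cluster 11, 804 were shared, or 16.5% of cluster 9 and 25.8% of cluster 11. Of all 18319 named genes, 3402 were raised in cluster 4 and 3112 in cluster 11. Against the 26.6% of all named genes raised in cluster 9, the 15% of cluster 4 was lower and the 25.8% of cluster 11 was near. Listed in no other cluster were 538 genes, or 11% of the raised genes of cluster 9. The largest listed fold of a gene was in cluster 9 for 1816 of the 4871 (37.3%), in cluster 6 for 750 and in cluster 3 for 595.

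**Figure D3:**
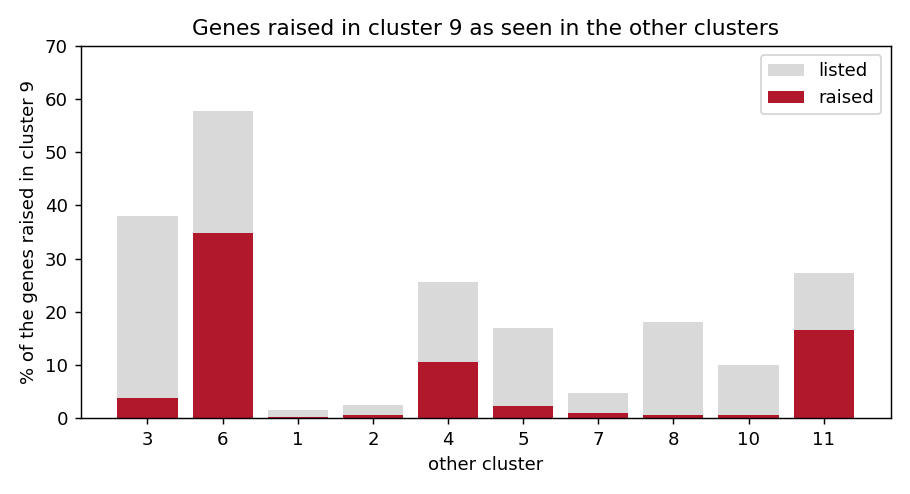
Share (%) of the 4871 genes raised in cluster 9 that were listed (grey) or raised (red) in each other cluster. Cluster 6 lists 57.8% and raises 34.8%, cluster 3 lists 38.1% and raises 3.74%, and cluster 11 raises 16.5%. Of all 18319 named genes, cluster 6 lists 36.4% and raises 20.3%, cluster 3 lists 29.9% and raises 4.0%, and cluster 11 raises 3112.

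Predicted genes without a name, some of which came earlier by p, are left out here. Among the named genes listed in cluster 9 alone, the first by p was Wnt10a, a secreted Wnt ligand, at 14.9 in the authors' deposited table. Pde5a, the phosphodiesterase that degrades cyclic GMP, was at 23.6 in the authors' deposited table. Fastkd5 was at 19.9, the nuclease gene Mgme1 at 17.6 and the elongation factor gene Tefm at 11.6 in the authors' deposited table. Among the rest were the deubiquitinase Otud1 at 11.6, the actin-associated gene Afap1l1 at 10.58 and the anoctamin Ano9 at 5.53 in the authors' deposited table. These genes came between positions 977 and 2529 in the order by p, well behind the leading genes. The 10 largest folds of raised named genes were also behind them, at positions from 1099 to 6543. They were led by the major urinary protein gene Mup20 at 45.0, the LIM domain gene Fhl3 at 38.0 and the transporter gene Slco5a1 at 31.8 in the authors' deposited table. Mup20 belongs to a family of near-identical genes, so its reads may be split or shared. The remainder, Zscan25, the arrestin gene Sag, Lrrc47, Ell3, Angptl1, Fam167a and Pde5a, lay between 23.6 and 28.8 in the authors' deposited table. None of the 10 was listed in cluster 3, and Ell3 alone was listed in cluster 6, at 1.64 in the authors' deposited table.

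Among the 1233 genes raised in cluster 9 and listed in both other epithelial clusters, some stood out by their ratio. Ifnlr1, a receptor chain for lambda interferons, was at 8.83 in cluster 9, 1.67 in cluster 3 and 2.14 in cluster 6 of the authors' deposited table. Ltbp1, which binds latent TGF-beta in the matrix, was at 7.01 in cluster 9, 1.78 in cluster 3 and 1.83 in cluster 6 of the authors' deposited table. The histone demethylase gene Kdm1b was at 7.55 in cluster 9, 2.27 in cluster 3 and 2.22 in cluster 6 of the authors' deposited table. At the other end, Plcd3, a phospholipase C, was at 2.19 in cluster 9, 15.5 in cluster 3 and 2.05 in cluster 6 of the authors' deposited table. Tead4, a DNA-binding partner of YAP, was at 2.46 in cluster 9, 2.43 in cluster 3 and 12.6 in cluster 6 of the authors' deposited table. The receptor tyrosine kinase gene Ror2 was at 2.27 in cluster 9, 9.58 in cluster 3 and 1.74 in cluster 6 of the authors' deposited table. So the direction of difference between the 3 clusters was not the same from gene to gene.

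Gastric surface genes were among those raised in cluster 9. Of 7 named surface mucous genes, 6 were raised in cluster 9, 3 in cluster 3 and 6 in cluster 6, with 26.6%, 4.0% and 20.3% of all named genes raised. The full list held 10 genes, and the 6 include Gkn1 and Mucl3, which are markers of the cluster. Gkn2, the second gastrokine, was at 5.60 in cluster 9, 1.62 in cluster 3 and 10.8 in cluster 6 of the authors' deposited table. Vsig1, a junctional protein of the stomach, was at 3.90 in cluster 9, 3.66 in cluster 3 and 2.20 in cluster 6 of the authors' deposited table. The trefoil peptide gene Tff1 was at 2.87 in cluster 9, 2.16 in cluster 3 and 3.85 in cluster 6 of the authors' deposited table, and the protease gene Ctse at 3.48, 3.20 and 3.60. Gkn1 and Gkn2 lie on chromosome 6 on opposite strands, with 21949 bases between the windows shown above, and Gkn3 lies beside Gkn2. Gkn3 was at 3.85 in cluster 9, 3.22 in cluster 3 and 2.96 in cluster 6 of the authors' deposited table, and was not raised in cluster 3. Of 12 named mucous neck and metaplastic genes, 7 were raised in cluster 9, 4 in cluster 3 and 5 in cluster 6. Pigr, which carries immunoglobulin A across epithelium, was at 4.74 in cluster 9 and 9.29 in cluster 6 of the authors' deposited table.

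Intestinal and goblet genes were raised beside the gastric ones. Their shares are to be read against all named genes, of which 26.6% were raised in cluster 9, 4.0% in cluster 3 and 20.3% in cluster 6. A gene is named if any cluster lists it, cluster 9 included. The full lists held 15 enterocyte, 15 goblet and 12 mucin genes, so shares over named genes exceed shares over full lists. Of 7 named enterocyte genes, 5 were raised in cluster 9 (71.4%), with 3 raised in cluster 3 (42.9%) and 3 in cluster 6 (42.9%). Of the markers of the cluster, Krt20 is counted among these 5, Fcgbp among the goblet genes and Mucl3 among the mucins below. The digestive enzyme gene Sis was raised in cluster 9 at 8.51 in the authors' deposited table and was listed in neither cluster 3 nor cluster 6. Vil1, which bundles actin in microvilli, was at 5.97 in cluster 9, 8.40 in cluster 3 and 1.54 in cluster 6 of the authors' deposited table, and was not raised in cluster 6. Of 9 named goblet genes, 6 were raised in cluster 9 (66.7%), with 1 raised in cluster 3 (11.1%) and 5 in cluster 6 (55.6%). The endoplasmic reticulum stress sensor of mucous cells, Ern2, was at 5.13 in cluster 9, 3.77 in cluster 3 and 3.95 in cluster 6 of the authors' deposited table, and was not raised in cluster 3. Spink4, a secreted protease inhibitor of goblet cells, was at 4.68 in cluster 9 and 3.54 in cluster 3 of the authors' deposited table, raised in cluster 9 only. Spdef, a transcription factor of goblet cells, was at 1.70 in cluster 9, 3.97 in cluster 3 and 5.44 in cluster 6 of the authors' deposited table and was raised in cluster 6 only. Of 7 mucins, 4 were raised in cluster 9 (57.1%), with 2 raised in cluster 3 (28.6%) and 2 in cluster 6 (28.6%). The membrane mucin gene Muc4 was at 4.45 in cluster 9 and 2.54 in cluster 6 of the authors' deposited table, and Muc6, the gland mucin, was at 1.57 in cluster 9 and not raised. Of 28 glycosyltransferases that build mucin sugars, 11 were raised in cluster 9 (39.3%), with 1 raised in cluster 3 (3.57%) and 14 in cluster 6 (50%). They included Galnt12, which starts sugar chains, at 6.70 in cluster 9, 1.97 in cluster 3 and 5.71 in cluster 6 of the authors' deposited table. St6galnac2, a sialyltransferase, was raised at 5.11 in cluster 9 of the authors' deposited table and listed in neither of the other epithelial clusters.

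Junction and polarity genes were raised in cluster 9 at shares of 42.9% to 61.9% over 5 lists, where 26.6% of all named genes were. In clusters 3 and 6, 4.0% and 20.3% of all named genes were raised. Of 21 tight junction genes, 13 were listed in cluster 9 and all 13 were raised (61.9%). In cluster 3, 15 were listed and 9 raised (42.9%), and in cluster 6, 10 were listed and 8 raised (38.1%). Cgn, a cytoplasmic plaque protein, was at 9.83 in cluster 9 and 8.74 in cluster 6 of the authors' deposited table and was not listed in cluster 3. Tjp3 was at 5.63 in cluster 9, 1.60 in cluster 3 and 3.41 in cluster 6 of the authors' deposited table. The polarity gene Pard3 was at 5.22 in cluster 9, 2.49 in cluster 3 and 3.87 in cluster 6 of the authors' deposited table. Cldn4, a claudin, was raised at 2.76 in cluster 9, while its 16.3 in cluster 3 of the authors' deposited table was not raised. Of 17 adherens junction and desmosome genes, 13 were listed and 9 raised in cluster 9 (52.9%). In cluster 3, 11 were listed and 2 raised (11.8%), and in cluster 6, 11 were listed and 7 raised (41.2%). The plaque genes Jup and Dsp were each at 3.68 in cluster 9, 1.53 and 6.42 in cluster 3, and 4.51 and 4.23 in cluster 6 of the authors' deposited table. Cdh1, the classical epithelial cadherin, was listed at 1.79 in cluster 9 of the authors' deposited table and was not raised there. Of 21 brush border and apical trafficking genes, 9 were raised in cluster 9, 6 in cluster 3 and 10 in cluster 6. Anks4b, a scaffold of microvilli, was raised at 3.67 in cluster 9 of the authors' deposited table and listed in no other cluster. Of 19 basement membrane and integrin genes, 9 were raised in cluster 9, against 3 in cluster 3 and 10 in cluster 6. The exocyst, which tethers secretory vesicles at the membrane, had 5 of 9 named subunits raised in cluster 9, 0 in cluster 3 and 3 in cluster 6.

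**Figure D4:**
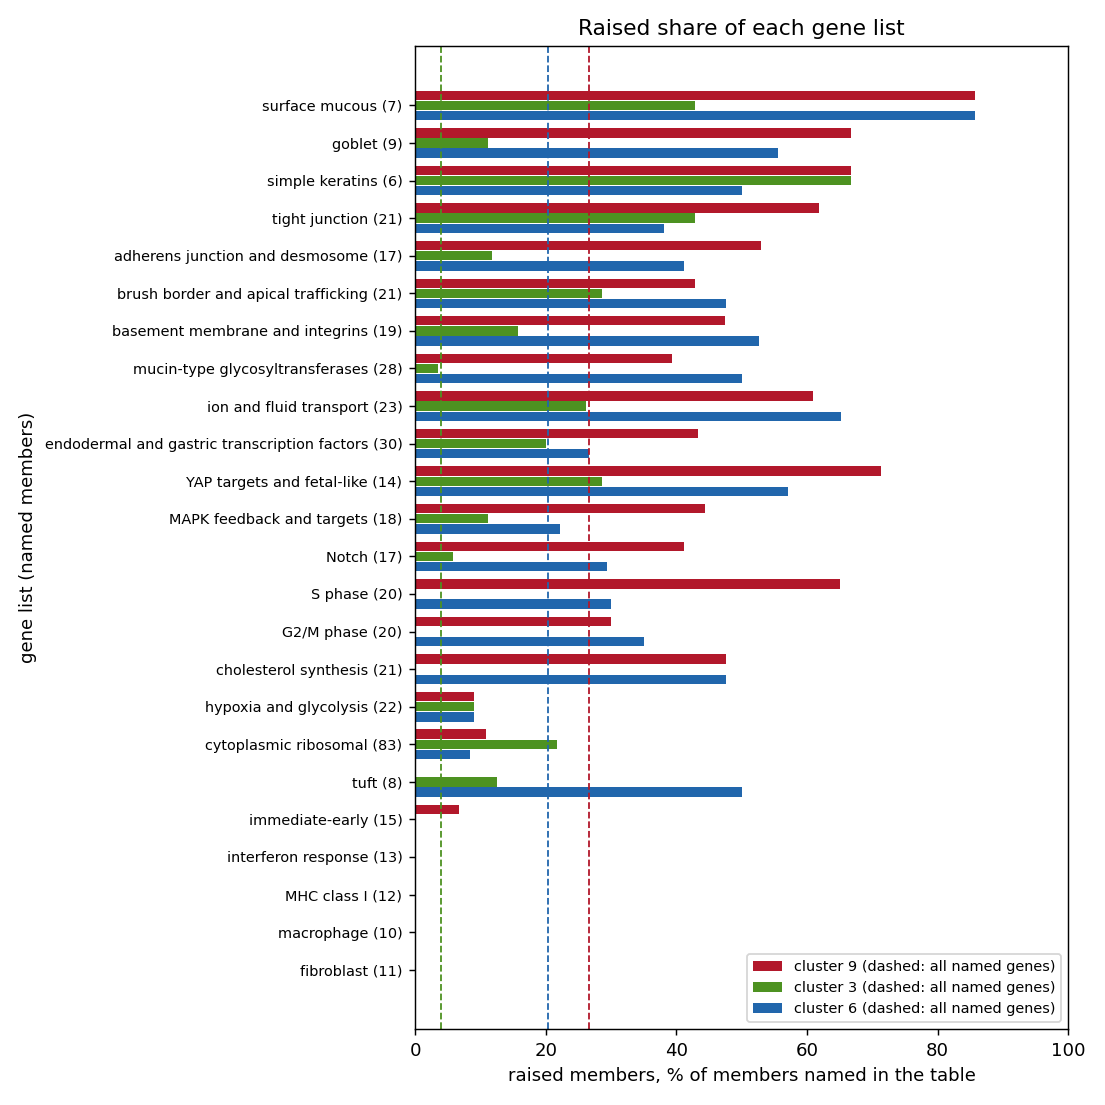
Share (%) of named members of each gene list that were raised in clusters 9 (red), 3 (green) and 6 (blue), with the number of named members in brackets and the share of all named genes as dashed lines at 26.6%, 4.0% and 20.3%. Surface mucous, tight junction, YAP target and S phase lists lie above the dashed line of cluster 9. No member of the interferon, MHC class I, macrophage or fibroblast lists was raised in cluster 9, 3 or 6. The surface mucous, goblet and simple keratin lists hold markers of the cluster.

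The listed members of a list had a median fold in cluster 9 of the authors' deposited table of 4.75 for surface mucous, 3.69 for goblet and 3.28 for tight junction genes, where all listed genes had 2.46. In the authors' deposited table, goblet genes had 3.775 in cluster 3 and 5.58 in cluster 6, and tight junction genes 3.72 and 3.41. Surface mucous genes had 2.16 and 3.85 there, and all listed genes 2.73 and 2.57. In cluster 9 the same median was 3.17 for Notch, 2.91 for S phase, 2.69 for cholesterol synthesis and 2.63 for YAP target genes in the authors' deposited table. In the same order it was 3.36, 2.001, 2.77 and 2.83 in cluster 3, and 3.43, 2.675, 2.59 and 3.58 in cluster 6. In cluster 9 it was 2.43 for ion and fluid transport genes, 2.42 for transcription factors and 2.33 for adherens junction and desmosome genes, close to that of all listed genes in the authors' deposited table. In the same order it was 2.95, 2.418 and 2.975 in cluster 3, and 3.01, 2.59 and 3.38 in cluster 6. Over all lists, 196 of 597 named members (32.8%) were raised in cluster 9.

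Of 23 named ion and fluid transport genes, 14 were raised in cluster 9 (60.9%), with 6 raised in cluster 3 (26.1%) and 15 in cluster 6 (65.2%), where 26.6%, 4.0% and 20.3% of all named genes were. The chloride channel gene Cftr was at 5.90 in cluster 9, 7.54 in cluster 3 and 2.93 in cluster 6 of the authors' deposited table, raised in each. The chloride-bicarbonate exchanger gene Slc4a2 was at 5.31 in cluster 9 and 4.78 in cluster 6 of the authors' deposited table and was not listed in cluster 3. Slc4a4, which carries sodium and bicarbonate, was at 3.504 in cluster 9, 2.41 in cluster 3 and 3.49 in cluster 6 of the authors' deposited table, and was not raised in cluster 3. Slc26a9, a gastric chloride transporter, went the other way, at 1.58 and not raised in cluster 9 and at 8.66 and raised in cluster 3 of the authors' deposited table.

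Of 30 endodermal and gastric transcription factors, 13 were raised in cluster 9 (43.3%), 6 in cluster 3 (20%) and 8 in cluster 6 (26.7%). Of all named genes, 26.6%, 4.0% and 20.3% were raised in the same order. Grhl2, which maintains epithelial junctions, was at 7.76 in cluster 9 and 1.90 in cluster 6 of the authors' deposited table, and was raised in cluster 9 alone. Pdx1, a factor of the antrum, duodenum and pancreas, was at 5.70 in cluster 9 and 1.82 in cluster 6 of the authors' deposited table, and was likewise raised only in cluster 9. Nr5a2, a nuclear receptor of endodermal organs, was raised at 2.45 in cluster 9 of the authors' deposited table and listed in no other cluster. The epithelial factor Ehf was at 4.64 in cluster 9, 2.10 in cluster 3 and 3.35 in cluster 6 of the authors' deposited table. Gata4 was at 3.08 in cluster 9, 7.41 in cluster 3 and 3.02 in cluster 6 of the authors' deposited table, raised in each.

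Signalling lists had 41.2% to 71.4% of their named genes raised in cluster 9, where 26.6% of all named genes were raised, beside 4.0% in cluster 3 and 20.3% in cluster 6. Of 12 EGFR ligands and receptors, 7 were listed and 5 raised in cluster 9, with 6 listed and 0 raised in cluster 3 and 6 listed and 4 raised in cluster 6. Listed members had a median fold of 2.66 in cluster 9 and 2.48 in cluster 3 of the authors' deposited table. The ligand gene Egf was raised at 5.12 in cluster 9 of the authors' deposited table and listed in no other cluster, whereas the ligand gene Tgfa was at 1.69 and not raised in cluster 9 and at 14.1 and raised in cluster 6. The receptor genes Erbb3 and Erbb2 were at 3.90 and 3.82 in cluster 9, 2.04 and 2.48 in cluster 3 and 2.42 and 5.74 in cluster 6 of the authors' deposited table. Of 18 MAPK feedback and target genes, 8 were raised in cluster 9, 2 in cluster 3 and 4 in cluster 6, while Dusp4, Dusp5 and Dusp6 were not listed. The target gene Etv5 was at 6.73 in cluster 9 and 2.12 in cluster 3 of the authors' deposited table, and the feedback inhibitor Spry2 was at 4.42 and 6.07 there, both raised in cluster 9 only. Of 14 YAP target and fetal-like genes, 10 were raised in cluster 9, 4 in cluster 3 and 8 in cluster 6. Ankrd1, a target of YAP, was at 7.14 in cluster 9, 2.89 in cluster 3 and 2.94 in cluster 6 of the authors' deposited table. The alarmin gene Il33 was at 7.37 in cluster 9 and 5.84 in cluster 6 of the authors' deposited table. Amotl2 and Ccn1, of the same list, were at 4.44 and 3.39 in cluster 9 and higher, at 5.27 and 3.82, in cluster 6. Of the 14 genes, 1 had its largest listed fold in cluster 9, and 10 were raised among the 8 clusters other than 9, 3 and 6. Of 17 Notch pathway genes, 7 were raised in cluster 9, against 1 in cluster 3 and 5 in cluster 6. The Notch ligand gene Dll1 was at 6.76 in cluster 9 and 4.16 in cluster 6 of the authors' deposited table and was raised in cluster 9 only. The receptor gene Notch1 was at 3.49 in cluster 9 of the authors' deposited table and listed in neither other epithelial cluster. Of 11 Wnt targets and feedback genes, 5 were raised in cluster 9, against 2 in cluster 3 and 3 in cluster 6. The Wnt receptor ligase gene Rnf43 was at 4.37 in cluster 9, 9.30 in cluster 3 and 1.502 in cluster 6 of the authors' deposited table, while Axin2 and Lgr5 were not listed in cluster 9.

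More replication than mitotic genes were raised in cluster 9, where 26.6% of all named genes were raised, beside 4.0% in cluster 3 and 20.3% in cluster 6. Among the other 8 clusters, 11 of the 20 S phase and 17 of the 20 G2/M genes were raised. Of 20 S phase genes, 13 were raised in cluster 9 (65.0%), with 9 listed but 0 raised in cluster 3, and 6 raised in cluster 6 (30%). Dtl, which marks replication licensing proteins for turnover, was at 17.0 in cluster 9 of the authors' deposited table and listed in neither other epithelial cluster. Hells, a chromatin remodeler, was at 6.34 in cluster 9 and 2.06 in cluster 6 of the authors' deposited table, raised in cluster 9 but not in cluster 6. The helicase subunit gene Mcm5 was at 4.94 in cluster 9 and 3.22 in cluster 6 of the authors' deposited table. Pcna and Tyms were not listed in cluster 9. Of 20 G2/M genes, 6 were raised in cluster 9 (30%, near the share of all named genes), 0 in cluster 3 and 7 in cluster 6 (35%). Nusap1, a spindle protein, was at 4.76 in cluster 9 of the authors' deposited table, and Mki67, the proliferation marker, was at 2.89 in cluster 9, 3.31 in cluster 3 and 4.70 in cluster 6. Top2a, Ccnb1 and Cdk1 were not listed in cluster 9. Of 16 cell cycle inhibitor genes, 3 were raised in cluster 9 (18.8%, below that share), 1 in cluster 3 and 2 in cluster 6. In cluster 9 they were Cdkn2b at 5.26, Cdkn1c at 3.10 and Cdkn2a at 2.04 in the authors' deposited table. Of 17 dysplastic and gastric stem cell genes, 5 were raised in cluster 9 (29.4%, near that share), 3 in cluster 3 and 3 in cluster 6. Bmi1, a chromatin repressor, led them at 4.87 in cluster 9 of the authors' deposited table, followed by Bhlha15, Aqp5, Alcam and Prom1 at 2.09 to 2.57, and Cd44, Sox9, Lgr5 and Olfm4 were not listed.

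Metabolic lists were uneven, beside 26.6% of all named genes raised in cluster 9, 4.0% in cluster 3 and 20.3% in cluster 6. Of 21 cholesterol synthesis genes, 13 were listed and 10 raised in cluster 9 (47.6%), with 9 listed and 0 raised in cluster 3 and 12 listed and 10 raised in cluster 6 (47.6%). Listed members had a median fold of 2.69 in cluster 9 and 2.77 in cluster 3 of the authors' deposited table. The late-step enzyme gene Sc5d was at 6.71 in cluster 9 and 4.57 in cluster 6 of the authors' deposited table, and Nsdhl was at 5.65 in cluster 9, 2.69 in cluster 3 and 3.51 in cluster 6. Of 25 antioxidant and xenobiotic genes, 7 were raised in cluster 9 (28%, near the share of all named genes), 2 in cluster 3 and 7 in cluster 6. The aldehyde dehydrogenase gene Aldh3a1 was at 6.11 in cluster 9 and 1.83 in cluster 6 of the authors' deposited table, and the alcohol dehydrogenase gene Adh7 at 6.505 and 9.29. Gpx2, a glutathione peroxidase of the gut epithelium, was at 4.53 in cluster 9, 1.86 in cluster 3 and 11.6 in cluster 6 of the authors' deposited table. Of 22 hypoxia and glycolysis genes, 2 were raised in each of the 3 clusters (9.09%), below the share of all named genes in clusters 9 and 6. Of 36 complex I subunits, 2 were raised in cluster 9 (5.56%, below that share), 1 in cluster 3 and 7 in cluster 6.

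Of the named markers of macrophages (10), dendritic cells (8), neutrophils (7), T and NK cells (7), B cells (1), erythroid cells (7) and fibroblasts (11), 0 were listed in cluster 9. Clusters 3 and 6 were alike, with 0 of these markers raised in either. Of all named genes, 38.9% were listed in cluster 9. The mast cell protease gene Mcpt1 was listed at 1.68 and not raised in the authors' deposited table. Of 8 endothelial genes, the junction genes Cldn5 and Cdh5 (25%, where 26.6% of all named genes were raised) were raised at 5.06 and 2.703 in cluster 9 of the authors' deposited table, while Pecam1, Kdr, Tek and Vwf were not listed. The adhesion genes Mcam and Ncam1, on the pericyte and smooth muscle list (1 of 6 raised) and the glial list (1 of 3 raised), were at 2.12 and 6.21 in cluster 9 of the authors' deposited table. Of 3 enteroendocrine genes, the serotonin synthesis gene Tph1 was raised at 4.60 in cluster 9 of the authors' deposited table. Each of the chief and parietal lists had 1 named gene, Bhlha15 and Kcnq1, raised at 2.57 and 3.04 in cluster 9 of the authors' deposited table. Of 13 interferon response genes, 12 MHC class I genes and 7 MHC class II genes, 0 were listed in cluster 9. In clusters 3 and 6, too, 0 of them were raised, while 13, 10 and 7 were raised among the other 8 clusters. Of 15 immediate-early genes, Egr3 alone was listed, raised at 3.496 in the authors' deposited table. Of 8 tuft cell genes, 0 were raised in cluster 9, 1 in cluster 3 and 4 in cluster 6, and the tuft gene Avil was at 1.59 in cluster 9, 1.87 in cluster 3 and 6.83 in cluster 6 of the authors' deposited table. The parts that doublets, free RNA and cluster size had in these counts were not tested.

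**Figure D5:**
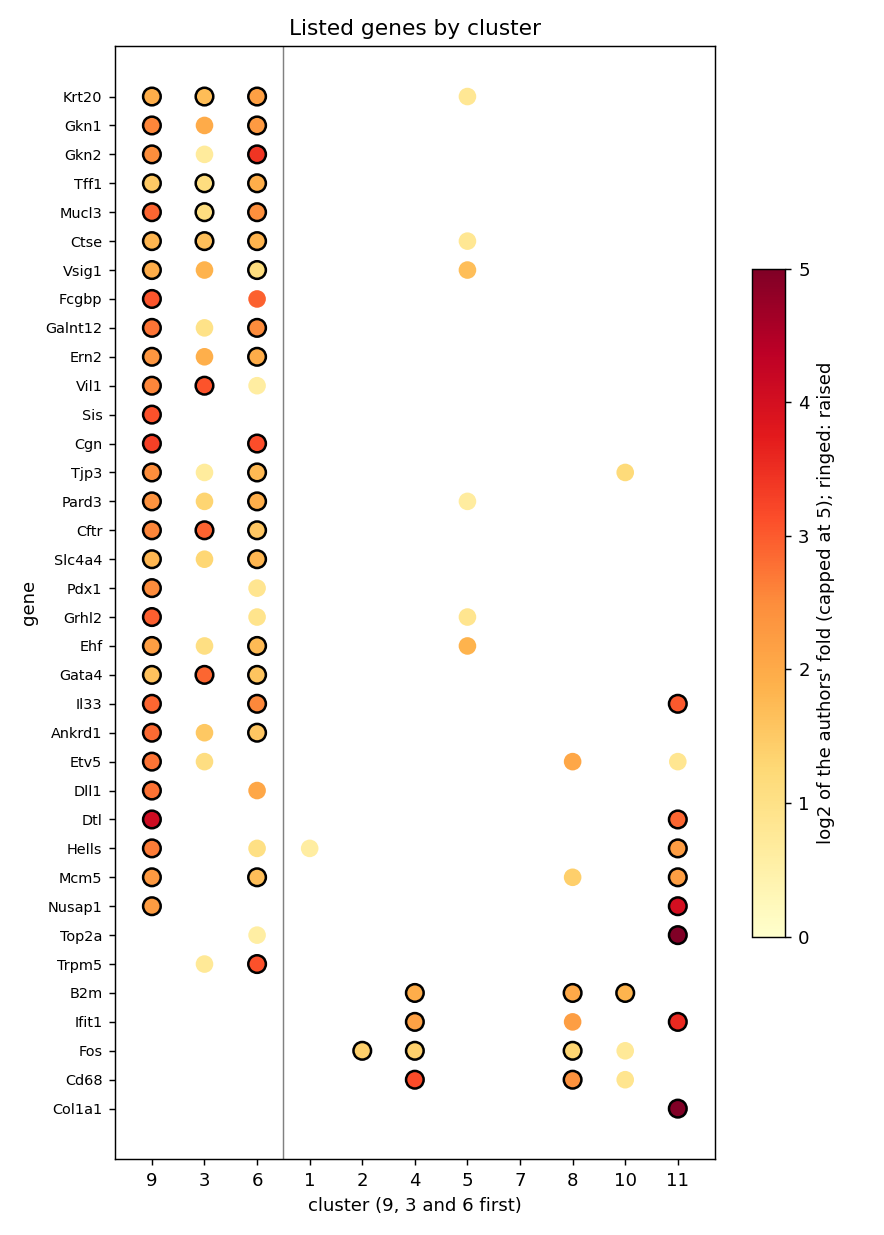
Log2 of the authors' deposited fold (color, capped at 5) for 36 genes in clusters 9, 3 and 6 and the other 8 clusters. Ringed points are raised and empty places are not listed. Gastric and junction genes fall mostly in clusters 9, 3 and 6, replication genes also in cluster 11, and B2m, Ifit1, Fos, Cd68 and Col1a1 in none of clusters 9, 3 and 6.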

How the data were processed

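The values are those of 1 table of the authors' comparisons for the whole series, which holds 0 columns of per-sample values. For each of 11 clusters the authors deposited gene names with a linear fold, which is a ratio, and a p-value, both per the file headers. Only folds above 1.5 are given. Per the submitters' processing notes, mm10, STAR 2.7.3a, DESeq2 3.5 and Partek were used, at steps not specified. The test behind the p-value, its adjustment, the filters on cells, the handling of doublets and how clusters were made are not given in the sources at hand. Large folds can come from genes seen in few cells.

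From the table, a gene was called raised at a fold of at least 2 with p of at most 0.05, over all 18319 names, and counted per cluster and per list with Python 3.11.15, pandas 2.3.3, numpy 2.4.6 and matplotlib 3.10.9. The counting was tested on simulated data. Each of the 2 samples took its tumor type from its label and stood alone in its group, and they were not compared. There were 50 lists of gene names and 18 families by name pattern. Shares are over the members named in the table, and a member could be named through cluster 9 alone. Some lists hold markers of the cluster. Members and lists were chosen with earlier results of these data known, and some families, the motifs and the genes plotted over all clusters were chosen after values were seen. Genes were named by rule: the markers, the first 15 by p, the 10 largest folds, up to 4 leading raised members of each list and members by role, the extremes of the ratio to clusters 3 and 6, the first genes listed in cluster 9 alone, and those at the fold of 2. Some genes and families that the rule takes are not reported here. Gene spans and promoters are those of RefSeq on GRCm38.p6, matched by symbol; 16428 names (89.7%) had a span. Positions are 1-based. Alternatives were folds of 1.5 and 3, any p, a p of at most 0.001, and counting without ribosomal, mitochondrial-genome and predicted genes that lack a name.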

Additional observations from a re-analysis of the deposited data

How the results depend on the processing

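Fold and p thresholds set the counts. At a fold of at least 3, 2578 genes were raised in cluster 9, against 4871, and 102 list members, against 196. The genes raised in both clusters 9 and 3, 182 as reported, were 359 at a fold of 1.5, 54 at a fold of 3, 1444 at any p and 50 at a p of at most 0.001. Those raised in both clusters 9 and 6, 1697 as reported, were 3004, 541, 2234 and 1033 under the same settings. The number of genes raised in cluster 9 stayed within 1.5 times its value at a fold of 1.5 (6938), any p (4966), a p of at most 0.001 (4459) and without ribosomal and predicted genes (3856). Of the 50 lists, the count in cluster 9 moved by over 1.5 times in 9 at a fold of 1.5, 28 at a fold of 3, 0 at any p and 1 at a p of at most 0.001. Genes raised in cluster 9 and listed in no other cluster were 538 as reported and 220 without ribosomal and predicted genes. No paired analysis was possible because the table gives no values per sample and no result comes from a test. No library could be left out for the same reason, and the depth behind each fold is unknown.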

Other observations

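Large gene families were raised in cluster 9 in shares above, near or below the 26.6% of all named genes, as descriptions only. In clusters 3 and 6, 4.0% and 20.3% of all named genes were raised. Of 281 genes named Zfp, a class of zinc finger factors, 35.9% were raised in cluster 9, 3.91% in cluster 3 and 21.7% in cluster 6. Of 47 ubiquitin-specific proteases, which remove ubiquitin from proteins, 22 were raised in cluster 9 (46.8%), against 4 in cluster 3 and 10 in cluster 6. The largest was Usp27x at 8.58 in cluster 9 of the authors' deposited table. Of 75 mitochondrial ribosomal protein genes, 22 were raised in cluster 9 (29.3%, near the share of all named genes), 3 in cluster 3 and 23 in cluster 6. Among them, Mrps12 was at 7.14 in cluster 9, 2.52 in cluster 3 and 1.89 in cluster 6 of the authors' deposited table. Of 258 solute carriers, 65 were raised in cluster 9 (25.2%, near the share of all named genes), 9 in cluster 3 and 48 in cluster 6.

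Of 55 Rab GTPases, which direct vesicle traffic, 12 were raised in cluster 9 (21.8%), 1 in cluster 3 (1.82%) and 15 in cluster 6 (27.3%). Rab27b, which acts in secretion, was at 5.93 in cluster 9 and 4.10 in cluster 6 of the authors' deposited table. Of 37 proteasome subunits, 9 were raised in cluster 9 (24.3%), 0 in cluster 3 and 5 in cluster 6 (13.5%). Of all named genes, 26.6%, 4.0% and 20.3% were raised in the same order. In cluster 9 both shares were thus slightly below that of all named genes. By chromosome, the share of named genes raised in cluster 9 ran between 22.8% on chromosome 1 and 31.8% on chromosome 19, beside 26.6% of all named genes.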
